A study of Mus musculus with 5 samples.

Results

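The histone mark H3K9me3, found in silent chromatin, was followed at 7 genes of the mouse major histocompatibility complex (MHC) in CD8+ T cells. The genes were H2-D1, H2-K1, H2-Q1 and H2-M2 of class I, and H2-Aa, H2-Ab1 and H2-Ob of class II. Members were the deposited regions within 5 kb of the span of any of the 7 genes on chromosome 17, and 8 of the 46409 regions of the series met this rule. Of these, 5 lay at class I genes and 3 at class II genes, and no region was shared between members. The 7 genes are among 8913 genes with a region within 5 kb.

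Spleens of OT-I:Cas9 mice gave the cells, so every cell carried the OT-I receptor, which is known to recognise an ovalbumin peptide, and Cas9 as transgenes. Cells labelled Prdm12-ko were electroporated with Cas9 protein holding a guide against Prdm12 (sgPrdm12, 2 libraries), and cells labelled Prdm12-wt with Cas9 protein holding a non-targeting guide (sgNTC, 2 libraries). Both groups thus carried the same transgenes and received 300 pmol of guide and 300 pmol of Cas9 protein, with 72 hours of recovery. Replicate 1 of both groups was batch 1 and replicate 2 was batch 2. The cells were an edited pool. The sources used here give no editing rate, mouse age or number of animals, and p-values therefore cover the spread among the 4 libraries, which may be technical. The assay was CUT&Tag, in which a transposase is tethered to marked chromatin through an antibody and inserts sequencing adapters beside it. The IgG library was not analysed here.

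Class I molecules present peptides from inside the cell to CD8+ T cells and are carried by nearly all nucleated cells. Class II molecules present peptides from outside the cell to CD4+ T cells and are made mainly by B cells, dendritic cells and macrophages, so mouse T cells normally keep class II genes silent. H3K9me3 is laid down by methyltransferases, is bound by heterochromatin protein 1 and marks repeats and gene clusters more than single promoters. The factors that act at MHC promoters are known to meet at a compact module of boxes just before the start site, where NF-Y binds a CCAAT box and CREB-type factors a TGACG core. NLRC5 joins the module at class I genes and CIITA at class II genes, and NF-kB binds a further site at classical class I genes.

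Promoter windows, where such modules are known to lie, are shown for 4 members. Of the 5 windows that could be matched among the 7 genes, none was covered by a region. The fifth, that of H2-M2, is not printed. The sequences are those of RefSeq (GRCm38.p6), each from 250 bases before to 20 bases after a listed start. Capitals mark the CCAAT box, the TGACG core and GGGATTCCC, which is part of the known NF-kB site, each searched on both strands.
H2-D1, chr17:35262844-35263113, + strand: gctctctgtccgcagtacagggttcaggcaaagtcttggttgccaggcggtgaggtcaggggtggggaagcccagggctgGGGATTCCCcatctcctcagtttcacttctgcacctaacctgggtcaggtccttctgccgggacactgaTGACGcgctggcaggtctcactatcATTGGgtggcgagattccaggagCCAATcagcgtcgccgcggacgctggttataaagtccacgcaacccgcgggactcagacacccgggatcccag
H2-K1, chr17:34000314-34000583, - strand: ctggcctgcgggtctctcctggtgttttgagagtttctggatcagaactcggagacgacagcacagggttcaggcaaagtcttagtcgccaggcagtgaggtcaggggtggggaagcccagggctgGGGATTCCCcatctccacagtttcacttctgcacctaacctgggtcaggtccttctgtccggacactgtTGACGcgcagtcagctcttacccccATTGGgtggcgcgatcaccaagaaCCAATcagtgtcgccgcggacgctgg
H2-Aa, chr17:34287804-34288073, - strand: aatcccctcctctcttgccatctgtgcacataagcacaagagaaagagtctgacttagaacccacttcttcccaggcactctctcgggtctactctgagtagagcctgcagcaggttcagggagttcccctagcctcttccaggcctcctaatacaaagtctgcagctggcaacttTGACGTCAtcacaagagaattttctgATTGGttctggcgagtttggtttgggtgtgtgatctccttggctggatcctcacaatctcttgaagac
H2-Ob, chr17:34238655-34238924, + strand: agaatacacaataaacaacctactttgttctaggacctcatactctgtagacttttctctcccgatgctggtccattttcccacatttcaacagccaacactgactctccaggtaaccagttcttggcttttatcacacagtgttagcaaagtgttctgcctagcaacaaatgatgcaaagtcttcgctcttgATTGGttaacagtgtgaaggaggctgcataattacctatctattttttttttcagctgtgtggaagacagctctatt
H2-K1 has 2 listed starts, and the downstream one is shown. The windows of H2-D1 and H2-K1 each held 2 CCAAT boxes, 1 TGACG core and 1 GGGATTCCC. That of H2-Aa held 1 CCAAT box and 2 TGACG cores, which overlap as a palindrome, and that of H2-Ob 1 CCAAT box and no TGACG core. The window of H2-M2 held 1 CCAAT box and 1 TGACG core, and no GGGATTCCC. Among 32851 windows of this length in the table, 35.4% held CCAAT, 19.4% held TGACG, 6.85% held both and 0.320% held GGGATTCCC. A match describes letters only and is not a site. The nearest H3K9me3 region lay 1435 bp from the window of H2-K1, 1463 bp from that of H2-M2 and 2673 bp from that of H2-Ob. It lay 6697 bp from the window of H2-Aa and 8727 bp from that of H2-D1.

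Library totals over all regions were 2353807 and 1396201 counts in sgPrdm12-1 and sgPrdm12-2, against 843673 and 1060646 in sgNTC-1 and sgNTC-2. The 10 most covered regions took 18.4% and 22.4% of the counts in sgPrdm12, against 39.8% and 44.0% in sgNTC, so the scale that sets the libraries side by side matters. Values below are CPM, counts per 1e6 of effective library size on the TMM scale, which centres the typical region. Log2 fold changes are of sgPrdm12 over sgNTC, and over all tested genes their median was -0.03 on this scale, against 0.54 with total counts and 0.98 with the authors' own constants. Coordinates were read as GRCm38. The submitters' processing notes name GRCm39, but 66 regions would lie past chromosome ends in GRCm39 and 0 in GRCm38, by lengths that were remembered and not read from a file. The ribosomal pseudogene Rn18s-rs5 of chromosome 17, at its GRCm38 position, is overlapped by regions that rank 5 and 16 of all by coverage. Under another build the regions below would not lie at these genes. Class I genes are close copies of each other, and no source used here says how reads that match several copies were placed, so their values are uncertain.

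None of the 8 regions and none of the 7 genes passed the test of sgPrdm12 against sgNTC. The test was edgeR's quasi-likelihood test, applied to regions and to counts summed per gene, and the threshold was an adjusted p (Benjamini-Hochberg, over all 7774 genes or 37390 regions) under 0.05. In that test 2.91% of all genes passed in either direction, as did 0.487% of all regions. The largest difference was at H2-D1, which stood higher in both sgPrdm12 libraries, and H2-Aa had the lowest fold change. H2-D1 was the 1 member with an unadjusted p under 0.05 by edgeR, as a gene and as a region, against 11.9% of all genes and 6.41% of all regions. DESeq2 and limma-voom called 0 of the 7 genes as well, although DESeq2 left H2-D1, H2-Ab1 and all 8 regions without an adjusted p. The median log2 fold change was 0.42 over the 7 genes, against -0.03 for all genes. Over the 8 regions it was 0.25, against -0.01 for all regions. The regions of H2-D1 and H2-Ab1 would not have met the filter on low counts through sgNTC alone, so these medians are descriptive only.

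**Figure D1:**
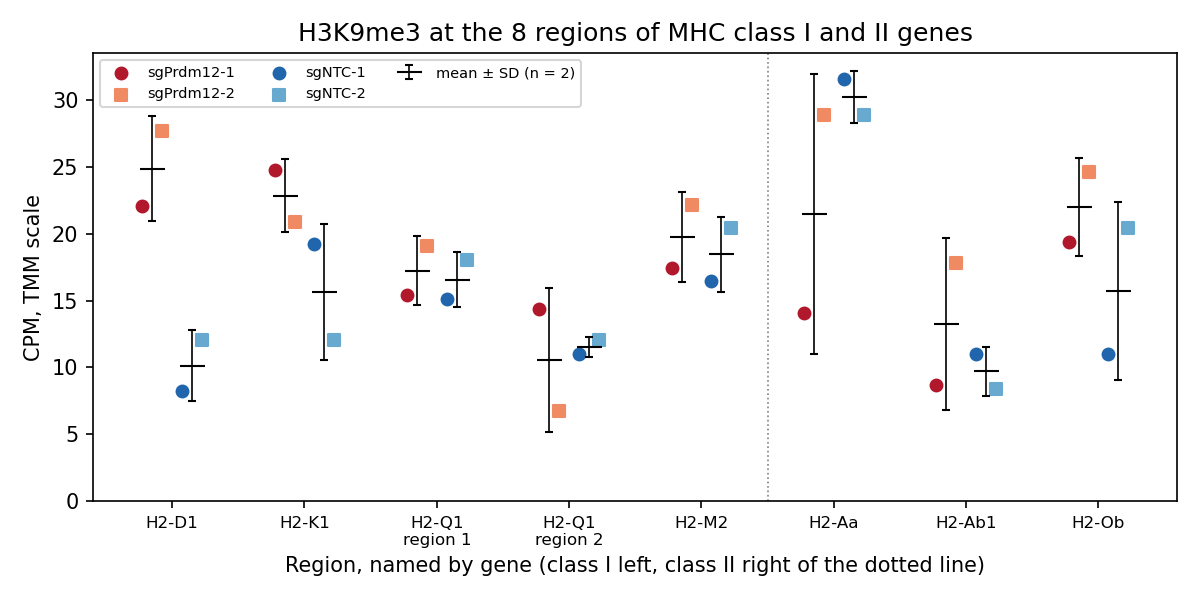
H3K9me3 in CPM on the TMM scale (y axis) at each of the 8 regions (x axis), 1 point per library, with the mean and SD of each group of 2. H2-Q1 region 1 starts at 35321230 and region 2 at 35325312. Both sgPrdm12 points lie above both sgNTC points at H2-D1 and H2-K1 and at no other region, while at H2-Aa sgPrdm12-1 lies far below the other libraries.

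H2-D1 encodes one of the classical class I heavy chains, which present peptide to CD8+ T cells. Its only region, chr17:35271840-35272507, lies outside any annotated gene, 4343 bp downstream of the gene's end. It held 66 and 45 counts in sgPrdm12-1 and sgPrdm12-2, against 6 and 10 in sgNTC-1 and sgNTC-2. Exact Poisson 95% intervals, which cover counting error only, were 51.0 to 84.0 and 32.8 to 60.2 counts in sgPrdm12, against 2.20 to 13.1 and 4.80 to 18.4 in sgNTC. The sgPrdm12 libraries averaged 24.9 ± 3.94 CPM and the sgNTC libraries 10.14 ± 2.68 CPM (SD, n = 2 each), and the groups did not overlap. Both sgPrdm12 libraries stood above both sgNTC libraries in 21.4% of all genes and 20.2% of all regions. The log2 fold change was 1.27 (SE 0.52, 95% interval 0.25 to 2.28 from the SE) and did not pass (edgeR, adjusted p = 0.215). Its sgNTC counts alone would not have met the filter on low counts for regions. Regions kept with the help of sgPrdm12 lean to positive fold changes, so the interval and the order of the groups are descriptive only. Batch 1 alone gave 1.32 and batch 2 alone 1.15, so the batches were close.

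The call at H2-D1 turned on the scale. With total counts the log2 fold change was 1.83 (edgeR, adjusted p = 0.00501), and with the authors' constants it was 2.28 (edgeR, adjusted p = 4.06e-05). These scales called 15.1% and 44.3% of all genes higher, and 2.50% and 20.8% of all regions, 1 and 3 members among them. Set against the median of all genes, H2-D1 stood 1.30 higher on all of these scales, TMM included. The authors' own normalized signal in the region was 42.1 and 50.3 in sgPrdm12, against 7.72 and 10.9 in sgNTC.

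H2-K1 encodes the other classical class I heavy chain, the one known to present the ovalbumin peptide that the OT-I receptor recognises. Its region, chr17:34002018-34002508, lies 1399 bp upstream of the span of H2-K1 and overlaps the lncRNA gene Gm31082, so its counts cannot be assigned to either. It held 74 and 34 counts in sgPrdm12, against 14 and 10 in sgNTC. The mean was 22.8 ± 2.73 CPM in sgPrdm12 and 15.6 ± 5.10 CPM in sgNTC (SD, n = 2 each). The groups did not overlap, but sgPrdm12-2 at 20.9 CPM stood close to sgNTC-1 at 19.2 CPM. The log2 fold change of 0.57 (SE 0.48, interval -0.37 to 1.5) did not pass (edgeR, adjusted p = 0.766). The batches gave 0.32 and 0.75, and with a library left out the value ran from 0.16 without sgNTC-2 to 0.85 without sgNTC-1.

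H2-Q1 and H2-M2 are non-classical class I genes, whose products are known to be less polymorphic and more narrowly expressed. H2-Q1 had 2 regions inside its span. The first, chr17:35321230-35321752, held 46 and 31 counts in sgPrdm12 against 11 and 15 in sgNTC. The second, chr17:35325312-35325731, held 43 and 11 counts in sgPrdm12 against 8 and 10 in sgNTC. In CPM the groups overlapped at both regions, and at the second sgPrdm12-2 was the lowest of the 4 libraries. Summed over both, H2-Q1 averaged 27.8 ± 2.80 CPM in sgPrdm12 and 28.1 ± 2.80 CPM in sgNTC (SD, n = 2 each), with a log2 fold change of -0.01 (SE 0.39, interval -0.77 to 0.75; edgeR, adjusted p = 0.997).

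The region of H2-M2, chr17:37481575-37482072, lies inside the gene and held 52 and 36 counts in sgPrdm12 against 12 and 17 in sgNTC. The means were 19.8 ± 3.34 CPM in sgPrdm12 and 18.5 ± 2.80 CPM in sgNTC (SD, n = 2 each), with overlapping groups. The log2 fold change was 0.08 (SE 0.48, interval -0.85 to 1.01; edgeR, adjusted p = 0.990). The intervals of H2-Q1 and H2-M2 thus still hold changes of 0.7 or more in both directions on the log2 scale.

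H2-Aa and H2-Ab1 encode the alpha and beta chains of the class II molecule I-A. The region of H2-Aa, chr17:34280644-34281107, lies outside any annotated gene, 1637 bp downstream of the gene. It held 42 and 47 counts in sgPrdm12, against 23 and 24 in sgNTC, which were the highest sgNTC counts among the 8 regions. The means were 21.5 ± 10.49 CPM in sgPrdm12 and 30.2 ± 1.93 CPM in sgNTC (SD, n = 2 each). Here sgPrdm12-1 stood at 14.1 CPM, while sgPrdm12-2 at 28.9 CPM was level with sgNTC-2 at 28.9 CPM. The log2 fold change of -0.54 (SE 0.41, interval -1.34 to 0.27) did not pass (edgeR, adjusted p = 0.728). The value was -1.18 within batch 1 and -0.01 within batch 2. With total counts and the authors' constants H2-Aa turned positive, at 0.02 and 0.47. Relative to the median of all genes it was -0.52 and -0.51 on those scales.

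The region of H2-Ab1, chr17:34265001-34265285, lies inside the gene and was the narrowest, at 284 bp. It held 26 and 29 counts in sgPrdm12 against 8 and 7 in sgNTC. The means were 13.3 ± 6.45 CPM in sgPrdm12 and 9.71 ± 1.82 CPM in sgNTC (SD, n = 2 each), with sgPrdm12-1 at 8.70 CPM between the sgNTC values. The log2 fold change was 0.42 (SE 0.69, interval -0.93 to 1.76; edgeR, adjusted p = 0.929), and the batches gave -0.40 and 1.01. As at H2-D1, the sgNTC counts alone would not have met the filter on low counts for regions. In CPM sgPrdm12-1 lay below sgPrdm12-2 here and at H2-Aa, as it did at 6 of the 8 regions.

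H2-Ob encodes the beta chain of H2-O, which is known to restrain peptide loading by H2-DM. Its region, chr17:34241597-34242225, lies inside the gene and held 58 and 40 counts in sgPrdm12 against 8 and 17 in sgNTC. The means were 22.001 ± 3.66 CPM in sgPrdm12 and 15.7 ± 6.69 CPM in sgNTC (SD, n = 2 each), and sgPrdm12-1 at 19.4 CPM lay below sgNTC-2 at 20.5 CPM. The log2 fold change was 0.45 (SE 0.48, interval -0.49 to 1.39; edgeR, adjusted p = 0.847). It was 0.03 without sgNTC-1 and 0.90 without sgNTC-2. No member had both sgPrdm12 libraries below both sgNTC libraries, a pattern that 19.7% of all genes and 16.4% of all regions showed. On the authors' scale 5 of the 7 genes passed as higher, namely H2-D1, H2-K1, H2-Q1, H2-M2 and H2-Ob, against 44.3% of all genes.

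**Figure D2:**
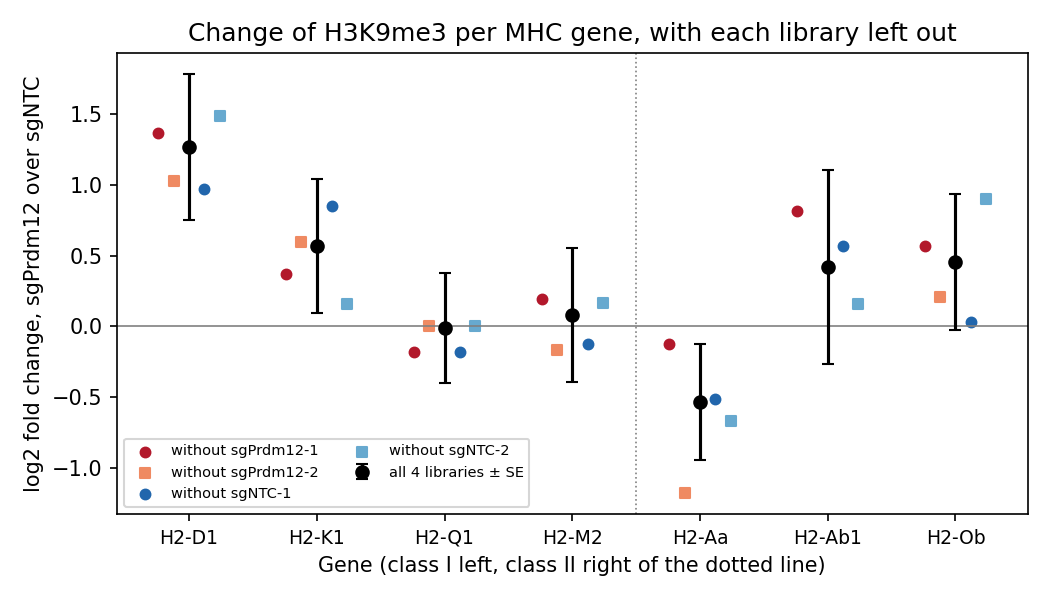
Log2 fold change of each gene, sgPrdm12 over sgNTC, on the TMM scale (y axis), from all 4 libraries with its SE (black) and with each library left out (coloured). H2-D1 stayed between 0.97 and 1.49 in these fits, while H2-Aa spread from -1.18 to -0.12. H2-Ab1 has no value without sgPrdm12-2, where it was not tested.

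Per kb of region, the members lay on both sides of the median of all regions, which was 35.2 CPM per kb over the 4 libraries. In sgPrdm12 the levels were 46.7 ± 22.7 CPM per kb at H2-Ab1, 46.6 ± 5.57 at H2-K1, 46.4 ± 22.7 at H2-Aa, 39.8 ± 6.73 at H2-M2, 37.3 ± 5.91 at H2-D1 and 35.0 ± 5.83 at H2-Ob. The first region of H2-Q1 followed with 33.0 ± 4.96 and the second with 25.2 ± 12.9 CPM per kb (SD, n = 2 each). No neighbours in this order differed by more than the larger of their SDs. In sgNTC H2-Aa led with 65.3 ± 4.18 CPM per kb, followed by H2-M2 with 37.2 ± 5.63, H2-Ab1 with 34.2 ± 6.41, H2-K1 with 31.9 ± 10.402 and the regions of H2-Q1 with 31.8 ± 3.97 and 27.5 ± 1.75. H2-Ob with 25.0 ± 10.7 and H2-D1 with 15.2 ± 4.01 CPM per kb came last (SD, n = 2 each). In sgNTC only the step between H2-Aa and H2-M2, and that between the 2 regions of H2-Q1, exceeded the larger SD. By mean level per kb over all libraries, H2-Aa stood at percentile 90.9 of all regions and H2-D1, whose region is the widest at 667 bp, at percentile 20.1. By total count, which is not divided by width, H2-Aa stood at percentile 92.6 and H2-D1 at percentile 91.0. Both ranks pool the groups, which differed at H2-D1 as given above.

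Class I was set against class II within each library, since a ratio of counts from the same library does not depend on the scale. The class I regions summed to 281 and 157 counts in sgPrdm12 and to 51 and 62 in sgNTC. The class II regions summed to 126 and 116 counts in sgPrdm12 and to 39 and 48 in sgNTC. Class I thus took 69.0% (exact 95% interval 64.3 to 73.5) and 57.5% (51.4 to 63.5) of the member counts in sgPrdm12, against 56.7% (45.8 to 67.1) and 56.4% (46.6 to 65.8) in sgNTC. The share was highest in sgPrdm12-1, but its interval, which covers counting error only, overlapped those of both sgNTC libraries. It did not overlap that of sgPrdm12-2, so the sgPrdm12 replicates differed from each other beyond these intervals. The mean log2 ratio of class I to class II was 0.80 ± 0.51 in sgPrdm12 and 0.38 ± 0.01 in sgNTC (SD, n = 2 each). The difference of 0.42 had p = 0.333 in an exact two-sided permutation test, which is the smallest p that 2 against 2 libraries can give.

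The difference depended on single genes and libraries. Without H2-Aa, class I over class II was 3.35 and 2.28 in sgPrdm12 and 3.19 and 2.58 in sgNTC, and the difference in log2 ratio turned to -0.06. Without sgPrdm12-1 the difference was 0.06, and without sgPrdm12-2 it was 0.78. Without H2-D1 the difference was 0.20, and without H2-Ob it was 0.69. With regions up to 20 kb from a gene it was 0.09 (exact permutation p = 1). Counting only regions that overlap a gene span, which leaves out those of H2-D1, H2-K1 and H2-Aa, it was -0.42. The 4 class I genes had log2 fold changes from -0.01 to 1.27 (median 0.32) and 3 class II genes from -0.54 to 0.45 (median 0.42), so the ranges of the classes overlapped.

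**Figure D3:**
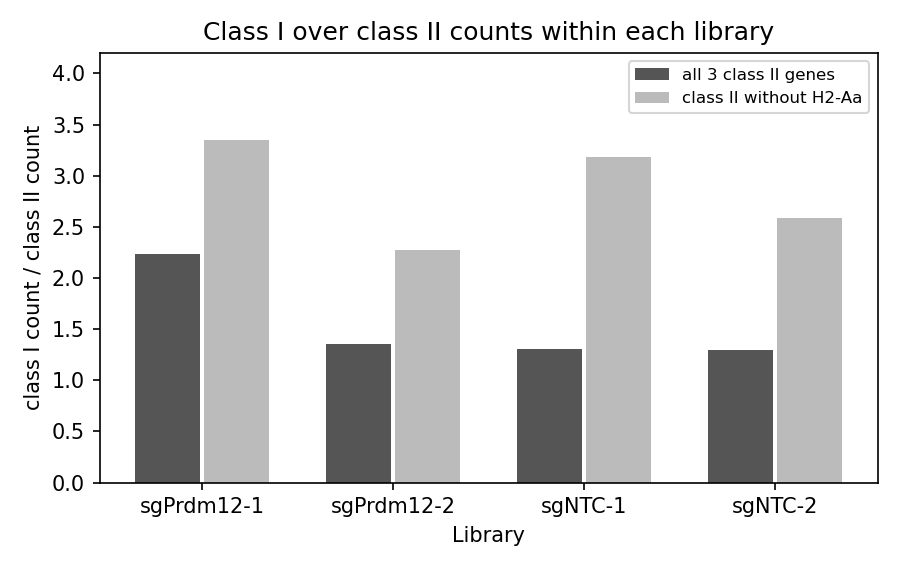
Ratio of class I to class II counts (y axis) in each library (x axis), with all 3 class II genes (dark) and without H2-Aa (light). With all genes sgPrdm12-1 stands at 2.23 and the other 3 libraries between 1.29 and 1.35, while without H2-Aa the libraries of both groups interleave.

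The other genes of the antigen presentation pathway were read from a list. Of 72 listed genes, 70 were in the annotation used, where the positions of H2-Q8 and H2-Q9 looked unreliable. A region lay within 5 kb of 16 listed genes, and 12 were tested, 7 of which are the members. The share of all annotated genes with a region was not computed, so the 16 are not read as few or many. None of the 12 was higher and 1 was lower, against 1.14% and 1.76% of all genes, and their median log2 fold change was 0.35, against -0.03. Of the 12, 2 had an unadjusted p under 0.05 by edgeR, against 11.9% of all genes. The gene that fell was Nfya, which encodes the alpha subunit of NF-Y and lies outside the MHC. Its region, chr17:48409808-48410074, held 34 and 12 counts in sgPrdm12 against 59 and 28 in sgNTC, or 11.4 and 7.38 CPM against 81.1 and 33.7 CPM. The groups did not overlap, and the gene fell by 2.54 on the log2 scale (SE 0.39, edgeR adjusted p = 1.83e-08). Without sgNTC-1 Nfya stood at -1.89 and did not pass (edgeR, adjusted p = 0.087).

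Genes of peptide supply and loading lie between the class II genes. Tap1 and Tap2 encode the peptide transporter of the endoplasmic reticulum and Psmb9 a subunit of the immunoproteasome. Tap1 had 57 and 27 counts in sgPrdm12 against 9 and 13 in sgNTC, with a log2 fold change of 0.35 (SE 0.53, edgeR adjusted p = 0.918). Its only region is shared with Psmb9, which stood at 0.35 over 2 regions. Tap2 had 31 and 29 counts in sgPrdm12 against 5 and 4 in sgNTC, with a log2 fold change of 1.25 (SE 0.77, edgeR adjusted p = 0.582). With regions up to 20 kb from the gene Tap2 passed as higher, as did 101 of 13073 genes at that distance. That distance takes in the regions starting at 34230899 and 34232168, which are also the nearest upstream of H2-Ob, so the call is not separate from them. Marchf1, a ubiquitin ligase that removes class II molecules from the cell surface, had 25 regions. It stood at 0.05 (SE 0.17, edgeR adjusted p = 0.983). Scaled by total counts or by the authors' constants Marchf1 passed as higher, as did 15.1% and 44.3% of all genes. Relative to the median of all genes it stood at only 0.08 on both of those scales.

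A further 4 genes of the list had a region with too few counts to be tested as genes. Tapbp encodes tapasin, which holds class I molecules at the peptide transporter, and had 21 and 25 counts in sgPrdm12 against 0 and 0 in sgNTC. Its region, chr17:33919667-33919907, also overlaps Gm19412. A count of 0 allows up to 3 counts over the sgNTC group, and the sgPrdm12 value stood 5.18-fold above that limit. This figure leaves out the counting error in sgPrdm12 and the spread among libraries, so it is not a lower bound. As a region it met the filter on low counts through sgPrdm12 alone and did not pass (edgeR, adjusted p = 0.151). Without that filter the gene passed (edgeR, adjusted p = 0.0319), a call that rests on sgNTC counts of 0 and 0. Fold and call are therefore descriptive only. B2m, the light chain of class I molecules, had 24 and 3 counts in sgPrdm12 against 3 and 6 in sgNTC. Psme2 had 23 and 11 against 4 and 4, and Irf2 15 and 4 against 3 and 4.

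Lineage genes were only counted for a nearby region, without the share of all genes beside them. None of 8 CD8 T cell markers and none of 5 B cell markers had a region within 5 kb, while 1 of 6 myeloid and dendritic cell markers (Flt3) and 1 of 3 NK cell markers (Klrb1c) did. These counts are not read as few or many. H3K9me3 does not report expression. The cell type on the labels could therefore not be checked from this mark, and a contribution of other cells was not tested.

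Around the members, 71 regions lay between H2-K1 and H2-M2, a stretch of 3.498 Mb with 20.3 regions per Mb, close to the 20.8 per Mb of chromosome 17. Of 62 tested, 1 was higher and 1 lower, against 0.110% and 0.377% of all regions, and the median log2 fold change was 0.27, against -0.01. The higher one, chr17:34825746-34826058 in Stk19 of the class III genes, held 55 and 39 counts in sgPrdm12 against 4 and 0 in sgNTC, with a log2 fold change of 2.98 (SE 0.76, edgeR adjusted p = 0.0379). This value was 3.09 without sgPrdm12-1 (edgeR, adjusted p = 0.0576), 2.70 without sgPrdm12-2 (edgeR, adjusted p = 0.315) and 1.84 without sgNTC-2 (edgeR, adjusted p = 0.691), so each of these left-out libraries ended the call. DESeq2 size factors (2.95, edgeR adjusted p = 0.130) and limma-voom (3.42, adjusted p = 0.9999) ended it as well. The Stk19 region met the filter on low counts through sgPrdm12 alone. Regions kept in this way lean to positive fold changes, so its fold is descriptive only. The lower one, chr17:36231252-36231604, lies 24069 bp from Rpp21, between the H2-T and H2-M genes. It held 973 and 789 counts in sgPrdm12 against 830 and 856 in sgNTC, or 325.6 and 485 CPM against 1140 and 1030 CPM. It fell by 1.42 on the log2 scale (SE 0.25, edgeR adjusted p = 0.000153) and ranked 62 of all regions by coverage. Without sgNTC-1 it stood at -1.40 (SE 0.64, edgeR adjusted p = 0.777) and without sgNTC-2 at -1.57 (SE 0.66, edgeR adjusted p = 0.612), so the fold stayed while the call was lost. With the authors' constants it stood at -0.41 and did not pass (edgeR, adjusted p = 0.143).

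**Figure D4:**
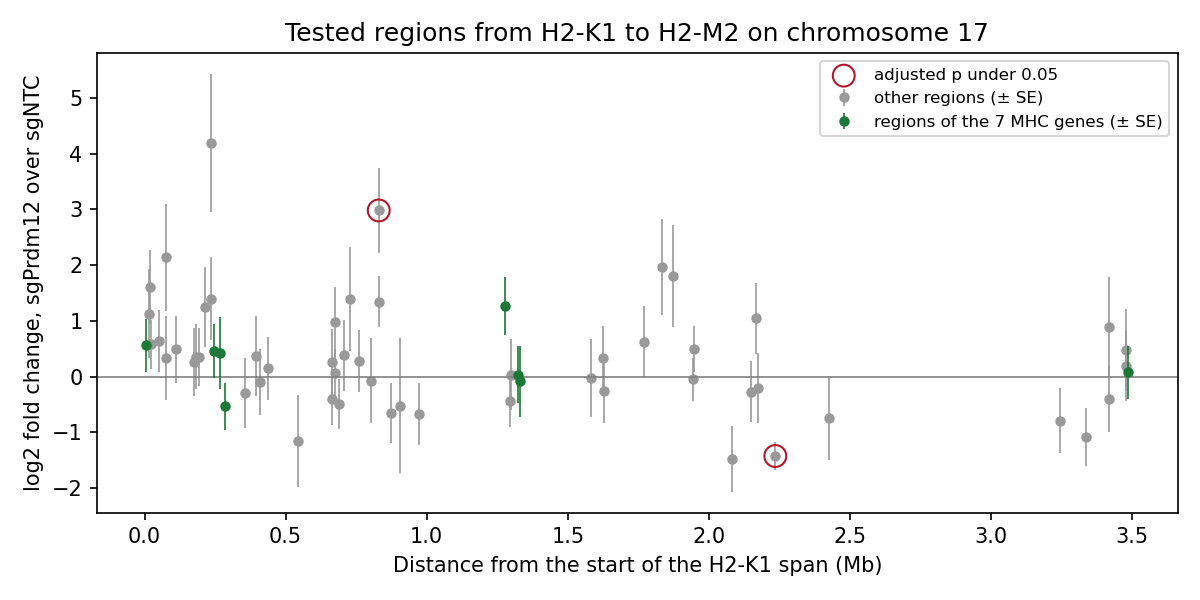
Log2 fold change of the 62 tested regions, sgPrdm12 over sgNTC, with SE (y axis), by distance in Mb from the start of H2-K1 (x axis). The 8 regions of the 7 genes are green and the 2 that passed the test are ringed, at 2.98 in Stk19 and -1.42 between the H2-T and H2-M genes.

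The interval was split into stretches bounded by gene spans, drawn after the members' values were seen, and differences between the stretches were not tested. From H2-K1 to H2-Oa all 7 regions lay above the median of all regions, with a median log2 fold change of 0.65. Their counts summed to 378 and 178 in sgPrdm12 against 55 and 48 in sgNTC, or 126 and 109 CPM against 75.6 and 57.7 CPM. Among the class II genes, from H2-Oa to H2-Ea, 10 regions had a median of 0.44 and 90.0% lay above the median of all regions, with H2-Aa as the exception. Their sums were 138 and 178 CPM in sgPrdm12 against 109 and 119 CPM in sgNTC. The medians were 0.07 over the 19 tested class III regions, 0.04 over the 5 from H2-D1 to H2-Q10 and -0.02 over the 21 tested regions of the H2-T and H2-M genes. None of the 7 and none of the 10 passed by itself. Most of these regions would not have met the filter on low counts through sgNTC alone. Those starting at 34013424, 34072267, 34210581, 34230899 and 34232168 met it through sgPrdm12 alone. Among these, 34072267 had 2 and 2 counts in sgNTC, and 34232168 had 0 and 1. Regions kept in this way lean to positive fold changes, so the shares above the median are descriptive only.

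The distance of 5 kb decided which regions counted. The farthest region inside it was that of H2-D1 at 4343 bp. The nearest outside it lay 6505 bp upstream of H2-Ob, at chr17:34232168-34232400, with 26 and 29 counts in sgPrdm12 against 0 and 1 in sgNTC. Its ratio of CPM, sgPrdm12 over sgNTC, was 18.6 with an exact counting interval of 3.20 to 747, and it did not pass (edgeR, adjusted p = 0.138). That interval leaves out the spread among libraries. The region met the filter on low counts through sgPrdm12 alone, so ratio and interval are descriptive only. A second region of low sgNTC counts lay 7696 bp upstream of H2-Ob, with 41 and 22 counts in sgPrdm12 against 3 and 5 in sgNTC (edgeR, adjusted p = 0.810). Upstream of H2-K1, the region at 13289 bp held 56 and 28 counts in sgPrdm12 against 8 and 1 in sgNTC (edgeR, adjusted p = 0.559). Those at 12805 bp and 19392 bp had log2 fold changes of 1.13 and 0.58. In CPM the regions named so far in this paragraph had both sgPrdm12 libraries above both sgNTC libraries, as did 20.2% of all regions. Those at 7696 bp and 12805 bp also met the filter on low counts through sgPrdm12 alone. The other regions within 20 kb had overlapping groups. Downstream of H2-K1, at 16852 bp, 22 and 9 counts in sgPrdm12 against 4 and 9 in sgNTC gave -0.33. Near H2-M2, the regions at 7886 bp and 8598 bp stood at 0.48 and 0.19. None of these regions passed.

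Genes whose values ran most like those of H2-D1 and H2-Aa over the 4 libraries were sought by Euclidean distance between centred log2 CPM. For H2-D1 these were Gm42340 and Gm42341 of chromosome 4, which had equal counts, both at a distance of 0.0858, and Kctd15 of chromosome 7 at 0.130. For H2-Aa they were Gm9831 of chromosome 3 at 0.0476, 4930467J12Rik of chromosome 13 at 0.0942 and Vstm4 of chromosome 14 at 0.115. Each had 1 region, and the comparison covers 4 libraries only.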

How the data were processed

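H3K9me3 CUT&Tag was measured in 2 sgPrdm12 and 2 sgNTC libraries. The authors deposited 1 table that lists regions, each with a whole-number read count and a normalized signal for every library. The deposited counts are not normalized, while the deposited signal equals that count multiplied by a constant of the library (0.638 and 1.12 for sgPrdm12-1 and sgPrdm12-2 and 1.29 and 1.09 for sgNTC-1 and sgNTC-2). No source used here says how the constants arose or how regions were called. Trimmomatic, Bowtie2, MACS2 and DiffBind are listed in the submitters' processing notes, with no version. The sgPrdm12 libraries held more counts in the listed regions, while sequencing depth is not given. Peak calling that leaned on those libraries would enrich the table for regions high there, which was not tested.

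Regions were joined to RefSeq GRCm38 gene spans. Whether table starts count from 0 or 1 is unknown. Counts per gene were summed over regions within 5 kb of protein-coding and lncRNA spans. Both units were tested in edgeR 4.0.16 (R 4.3.3) with TMM factors of the regions, filterByExpr and no block, two-sided, with Benjamini-Hochberg adjustment. SEs were derived from the log2 fold change and the quasi-F value. Within-batch ratios used a pseudocount of 0.5. The replicate number is the labels' batch and so pairs the libraries, although the replicate differences of the groups correlated at only 0.00281 over 37390 regions. Alternatives were DESeq2 size factors, total counts, the authors' constants, a replicate block, no filter, leaving out each library, DESeq2 1.42.0, limma-voom (limma 3.58.1), other flanks and the 10 most covered regions left out. For all genes and the antigen presentation list the 20 kb flank was chosen after seeing the data, as were the list's alternatives beyond scaling, block and left-out libraries and those for the interval. The tests were tried on simulated counts. The members, lists and alternatives were chosen with earlier results of these data known. Named were all members, list genes that passed and otherwise those of smallest p, interval regions that passed, and the 3 genes closest in profile to H2-D1 and H2-Aa. Other genes, Tap1, Tap2, Marchf1, Psmb9, Tapbp, B2m, Psme2 and Irf2 among them, were named after their values were seen.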

Additional observations from a re-analysis of the deposited data

How the results depend on the processing

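No member region or gene passed under DESeq2 size factors, no filter, a replicate block, limma-voom or any library left out, and no member gene under the other flanks. The DESeq2 Wald test called 0 of the 5 genes to which it gave an adjusted p, and it gave none to the 8 regions. With total counts 1 region and 1 gene passed, and with the authors' constants 3 regions and 5 genes. Over all regions 182 passed, against 107 with DESeq2 size factors, 1015 with total counts, 7817 with the authors' constants, 112 with limma-voom and 38 to 275 with a library left out. The higher share of these calls was 22.5%, against 10.28%, 92.2% and 99.3% on the other scales in that order. Over all genes 226 passed (39.4% higher), against 1247 (94.4%) with total counts, 3477 (99.1%) with the authors' constants, 65 with the DESeq2 Wald test, 138 with no flank and 85 to 247 with a library left out. With the replicate block 215 regions and 191 genes passed, and no call on a member changed. Of the antigen presentation list 1 gene passed, against 3 with total counts, 10 with the authors' constants, 2 with no filter, 2 with a 20 kb flank and 0 to 1 with a library left out. In the interval 2 regions passed, against 1 with DESeq2 size factors, the DESeq2 Wald test or limma-voom, 6 with total counts, 23 with the authors' constants and 0 to 1 with a library left out. The class I to class II difference of 0.42 turned to -0.42 with no flank and -0.057 without H2-Aa. It was 0.09 with a 20 kb flank, 0.20 without H2-D1 and 0.69 without H2-Ob, and ranged from 0.06 to 0.78 with a library left out. Some log2 fold changes of members changed sign. With total counts and the authors' constants they were 0.50 and 0.94 for the second H2-Q1 region, 0.57 and 1.01 for the H2-Q1 gene, and 0.018 and 0.47 for H2-Aa, both as a region and as a gene. With limma-voom they were -0.034 for the first H2-Q1 region and -0.0037 for the H2-M2 gene, and with a 20 kb flank -0.24 for H2-Ab1. With a library left out, the ranges were -0.19 to 0.14 and -0.82 to 0.24 for the H2-Q1 regions, -0.17 to 0.20 for H2-M2 and -0.23 to 0.82 for the H2-Ab1 region. For the H2-Q1 gene the range was -0.18 to 0.00056. The cause of these changes was not tested. With a median count of 32 and 17 a region in sgPrdm12, and 7 and 9 in sgNTC, low counts limit what single regions can show.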
